A study of Mus musculus with 6 samples.

Results

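The 9 myeloid transcription factors Maf, Cebpa, Cebpb, Spi1, Irf4, Irf8, Klf4, Pparg and Nr1h3 were followed among the 20649 genes of a single-cell count matrix from mouse tumors. They were chosen by name, as regulators of monocytes, macrophages, granulocytes and dendritic cells, and not by a threshold on a measured value, although with earlier results of these data known. Their levels were read in 10 sets of barcodes, each defined by 1 or a few marker transcripts, which together held 5040 of the 9235 barcodes. A barcode stands for 1 droplet, and a unique molecular identifier (UMI) for 1 captured transcript.

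The cells came from BALB/c mice carrying CT26 tumors, which grow from an established mouse colon carcinoma line placed under the skin of the right flank. Tumors received 3 intratumoral injections, given every other day, of exosomes loaded with an antisense oligonucleotide (ASO) against Stat6 (exoASO-STAT6) or with a scrambled ASO (exoASO-Scramble). All 6 tumors, 3 of each group, were taken 24 h after the last dose, dissociated and enriched for CD45-positive cells, and every group therefore shares tumor line, strain and exosome injection. The exosomes came from cultured human HEK293 cells, and no untreated tumor was analysed here.

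The tumors share 1 deposited matrix, in which every barcode ends in a number from 3 to 8. The labels do not say which tumor a number stands for, so the numbers served as 6 libraries of unknown treatment. The injected ASOs could therefore not be compared, and no test over tumors was run. The libraries held 867 to 2017 barcodes and 11492757 to 33902084 UMIs. Library 5 stood apart, with the lowest median depth (7270 UMIs per barcode, against 11013 to 16125 in the others) and the highest share of Cd163 barcodes among its monocyte/macrophage barcodes (23.5%, against 3.11% to 11.7%). A lymphocyte reference was drawn from 646 barcodes with at least 3 UMIs of 6 T and NK cell genes, no Csf1r and little C1q, to gauge free RNA. In library 5 this reference held 952 UMIs of Cebpb per 1000000, against 215 to 347 in the others. Among all barcodes, 16 barcode sequences occurred in 2 or more libraries, on 32 barcodes.

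These factors belong to 6 families. Spi1, which encodes the ETS factor PU.1, and the C/EBP proteins of Cebpa and Cebpb open and maintain the myeloid programme, with C/EBP alpha acting in progenitors and granulocytes and C/EBP beta in inflammatory and emergency responses. Irf8 and Irf4 encode interferon regulatory factors that bind DNA with PU.1 and other partners. Irf8 is needed for plasmacytoid and Xcr1-positive dendritic cells, and Irf4 for other dendritic cells and for alternative activation of macrophages. Klf4 is a zinc-finger factor of monocytes, Maf (c-Maf) a bZIP factor of tissue-type macrophages, and Pparg and Nr1h3 (LXR alpha) are nuclear receptors that sense lipids and oxysterols.

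In the GRCm38 annotation, Maf lay at chr8:115682942-115707794 on the minus strand, Cebpa at chr7:35119293-35121928 on the plus strand and Cebpb at chr2:167688915-167690418 on the plus strand. Spi1 lay at chr2:91082390-91115756 on the plus strand and Nr1h3 on the same chromosome at chr2:91184061-91202834 on the minus strand. Irf4 was found at chr13:30749226-30766976 and Irf8 at chr8:120736358-120756694, both on the plus strand. Klf4 was found at chr4:55527143-55532466 on the minus strand and Pparg at chr6:115360951-115490399 on the plus strand. All are protein-coding genes.

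The promoter sequences at hand, taken from RefSeq, covered 7 of the 9 members and held no entry for Maf and Spi1. Those of Irf8, Irf4, Cebpb and Klf4 are shown because the comparisons turn on these genes: Irf8 and Irf4 across the dendritic and plasmacytoid sets, and Cebpb and Klf4 between C1q-high and other Csf1r sets. Each run gives the 250 bases before the start site, 5′ to 3′ on the strand of the gene, in build GRCm38.p6. Capitals mark matches, on either strand, to TTCNNNGAA (the letters bound by STAT dimers), GAGGAA (a PU.1-type ETS core), GGGCGG (a GC box), CCAAT and TATAAA.
Irf8, chr8:120736108-120736357, plus strand: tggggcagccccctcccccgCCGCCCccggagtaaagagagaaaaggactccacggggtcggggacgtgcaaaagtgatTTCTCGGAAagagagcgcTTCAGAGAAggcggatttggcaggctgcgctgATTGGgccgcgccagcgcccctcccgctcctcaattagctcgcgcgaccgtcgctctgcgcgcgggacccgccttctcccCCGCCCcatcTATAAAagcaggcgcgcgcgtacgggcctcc
Irf4, chr13:30748983-30749232, plus strand: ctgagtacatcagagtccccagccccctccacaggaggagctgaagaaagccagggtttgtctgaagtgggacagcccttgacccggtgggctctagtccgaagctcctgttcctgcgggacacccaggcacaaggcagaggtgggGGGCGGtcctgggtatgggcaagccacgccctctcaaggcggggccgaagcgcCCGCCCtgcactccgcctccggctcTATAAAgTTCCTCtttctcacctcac
Cebpb, chr2:167688665-167688914, plus strand: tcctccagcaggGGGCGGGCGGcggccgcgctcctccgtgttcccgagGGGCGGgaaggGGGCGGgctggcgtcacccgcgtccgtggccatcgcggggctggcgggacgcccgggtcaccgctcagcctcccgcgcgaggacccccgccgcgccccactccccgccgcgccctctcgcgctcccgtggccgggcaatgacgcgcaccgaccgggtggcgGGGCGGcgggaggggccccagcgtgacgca
Klf4, chr4:55532476-55532725, minus strand: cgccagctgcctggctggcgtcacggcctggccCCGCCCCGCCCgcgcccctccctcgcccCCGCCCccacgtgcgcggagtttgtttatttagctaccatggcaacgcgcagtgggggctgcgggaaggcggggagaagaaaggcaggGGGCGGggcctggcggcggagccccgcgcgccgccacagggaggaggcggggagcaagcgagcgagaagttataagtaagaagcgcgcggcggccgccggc

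Irf8 held 2 matches to TTCNNNGAA, beginning at -171 and -153 before the start site, a CCAAT at -121 and a TATAAA at -31. The window before a second listed start site of Irf8 (chr8:120738389-120738638) is not shown and held no match to any of the letters searched. TTCNNNGAA was present in 7.02% of all 32851 promoter windows of this length, and in none of the other 6 members with a sequence. The letters TTCNNNNGAA, with the wider spacing preferred by STAT6, occurred in 5.85% of windows and in none of the 7 members. Irf4 held GAGGAA at -19, which 23.2% of windows contain, and TATAAA at -26, which 12.4% contain. Cebpb held 5 GC boxes and Klf4 held 4, of which a pair overlaps in each gene, and 32.7% of all windows hold at least 1. CCAAT occurred in 33.8% of windows. These are matches of letters only, and binding was not measured.

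The marker rules were as follows, in raw UMIs per barcode. Early monocyte barcodes had at least 1 UMI of Vcan or Hp, Ly6c2 barcodes at least 2 of Ly6c2, Mmp12 barcodes at least 1 of Mmp12 and Cd163 barcodes at least 1 of Cd163. C1q-high barcodes had at least 60 UMIs of C1qa, C1qb and C1qc together per 10000. All 5 of these sets also needed a UMI of Csf1r, a receptor of monocytes and macrophages that was not confined to these sets. They held 2008, 1969, 1318, 456 and 2067 barcodes in the order given. The other sets were 656 barcodes with at least 5 UMIs of S100a9 (a granulocyte alarmin), 260 with Flt3 (a receptor of dendritic cells), 126 with at least 2 of Xcr1 and Clec9a together, 179 with Ccr7 and 131 with at least 2 of Siglech (a lectin of plasmacytoid dendritic cells). Barcodes with at least 2 UMIs of 9 lymphocyte genes, 2745 in all, were left out of every set. The sets overlap, since 2903 barcodes (57.6%) met 2 or more rules, among them 1211 that were both early monocyte and Ly6c2.

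The marker genes did not bear out every name. Of the S100a9-high barcodes, 89.3% carried a Csf1r UMI, and they held 5366 UMIs of Lyz2 and 2435 of C1qa per 1000000, against 6246 and 2940 in monocyte/macrophage barcodes. All 7 listed neutrophil genes also stood above the monocyte/macrophage level, S100a9 by the rule, with S100a8 at 1816 against 322, G0s2 at 674 against 111 and the chemokine receptor Cxcr2 at 58.6 against 10.3. In those without Csf1r, S100a8 was 3027, G0s2 1085 and Cxcr2 93.9. Since they held genes of both kinds, these barcodes are called by their rule and given no cell type name. A Csf1r UMI was also present in 54.6% of Flt3, 75.4% of Xcr1/Clec9a, 57.0% of Ccr7 and 58.8% of Siglech barcodes. Without those, 118, 31, 77 and 54 barcodes remained in the dendritic and plasmacytoid sets and 70 in the S100a9-high set. Siglech barcodes without Csf1r held 12110 UMIs per 1000000 of 6 plasmacytoid markers, Siglech among them, and 2246 of 12 monocyte/macrophage markers (library range 893 to 3912), against 19310 in monocyte/macrophage barcodes and 1012 in lymphocyte reference barcodes. Flt3 barcodes without Csf1r held 1583, Xcr1/Clec9a barcodes 1831, Ccr7 barcodes 972 and S100a9-high barcodes 8818 of the same markers, each with UMIs of 11 of the 12 genes and with Csf1r at 0 by the rule. Whether barcodes with both kinds of marker hold more than 1 cell was not tested.

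Levels below are summed UMIs of a gene per 1000000 UMIs, with 95% counting intervals that cover counting error only, and a library has its own value where it holds at least 20 barcodes of a set. The assay counts 3′ ends of transcripts, and levels were compared between barcode sets and not between genes. A member was called higher or lower where its level differed by at least 2-fold in the pooled counts and in the same direction in every library with enough barcodes, with at least 3 such libraries. The background for each comparison is the share of the 9244 genes with at least 5 UMIs per 1000000 that met the same rule, and all 9 members were among them.

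**Figure D1:**
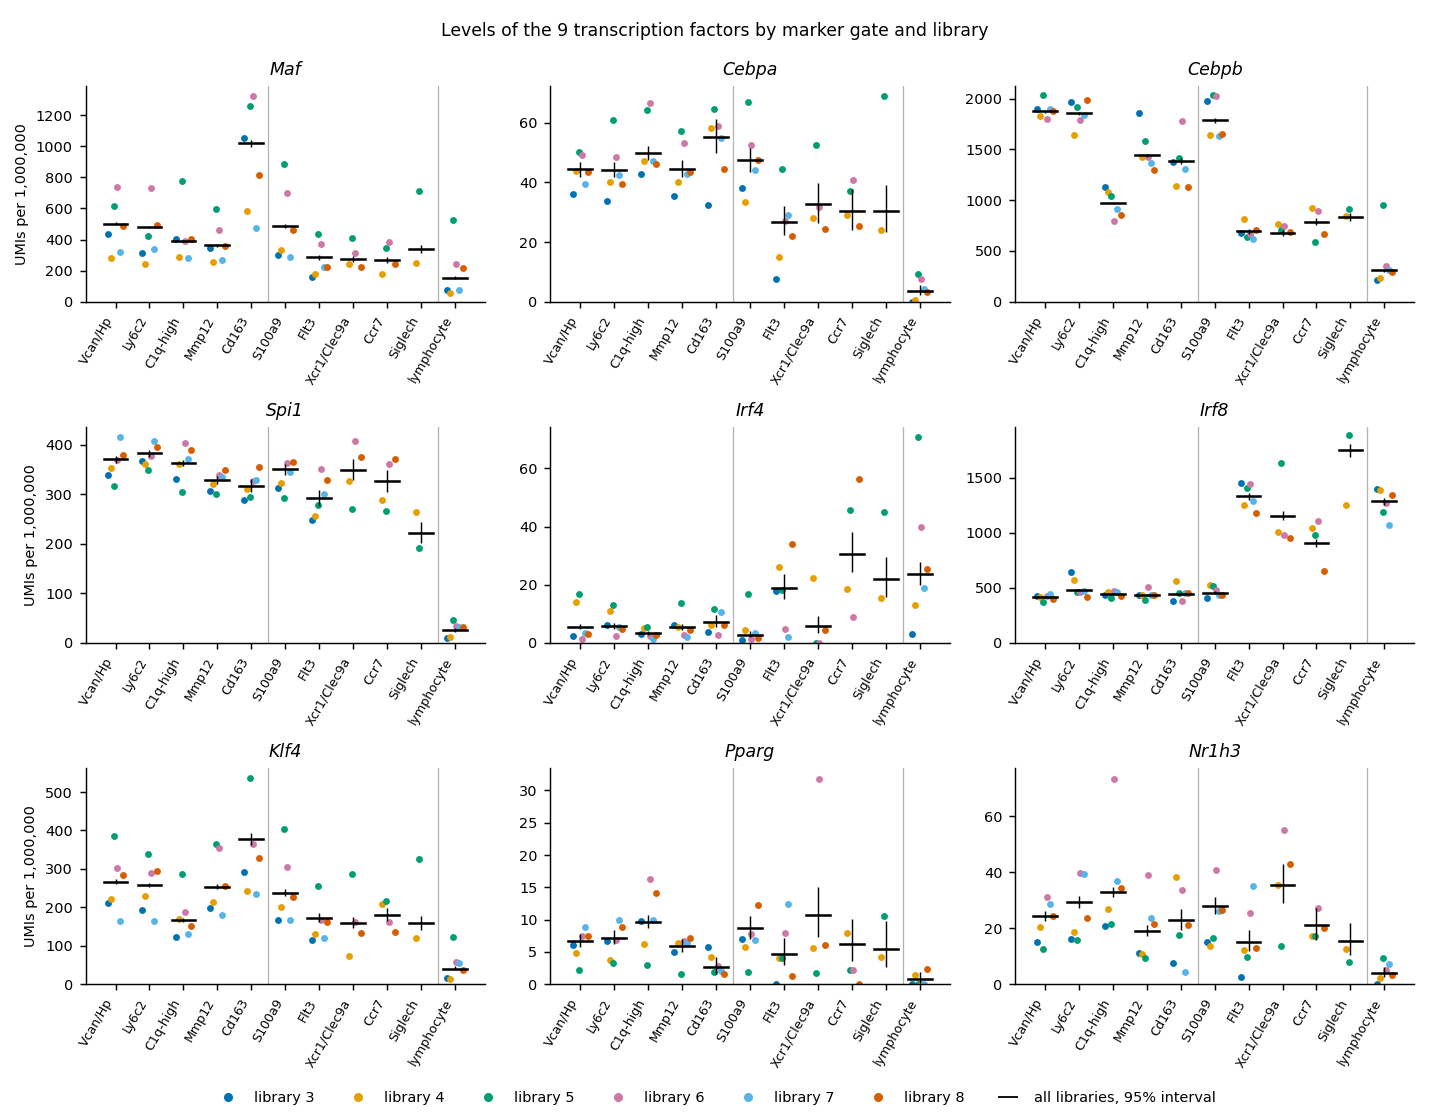
Level of each of the 9 factors (y axis, UMIs per 1000000) in the 10 marker-defined barcode sets and in a lymphocyte reference (x axis). Points are libraries with at least 20 barcodes, horizontal lines the pooled level and vertical lines its 95% counting interval. Cebpb stands between 1798 and 2033 in early monocyte barcodes and between 798 and 1129 in C1q-high barcodes, and Irf8 is higher in the Flt3 set (1181 to 1453) than in every set with Csf1r.

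Cebpb was highest in the early monocyte, Ly6c2 and S100a9-high barcodes. In the early monocyte set, libraries 3 to 8 held 1901, 1825, 2033, 1798, 1897 and 1877 UMIs of Cebpb per 1000000. In the C1q-high set the same libraries held 1129, 1083, 1038, 798, 916 and 853. No library of either set reached the range of the other. Pooled levels were 1876 in early monocyte, 1854 in Ly6c2, 1787 in S100a9-high, 1441 in Mmp12, 1387 in Cd163 and 969 in C1q-high barcodes, and 677 to 834 in the dendritic and plasmacytoid sets. Cebpa, the other C/EBP member, was nearly flat among the 5 Csf1r sets, from 44.2 in Ly6c2 to 55.4 in Cd163 barcodes, with 26.9 in Flt3 barcodes and 3.64 in lymphocyte reference barcodes.

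Maf and Klf4 were highest in Cd163 barcodes. Libraries 3 to 8 held 1054, 585, 1259, 1327, 472 and 818 UMIs of Maf per 1000000 in the Cd163 set. In the C1q-high set they held 404, 285, 775, 392, 283 and 406, so that every library was higher in Cd163 barcodes although the library ranges overlapped. Klf4 stood at 291, 244, 536, 365, 235 and 327 in the Cd163 set. The corresponding values in C1q-high barcodes were 124, 170, 286, 187, 132 and 152, again lower in each library. Library 5 had the highest Klf4 in all 5 Csf1r sets.

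Spi1 varied little among the sets with Csf1r. Its pooled level ran from 317 in Cd163 to 382 in Ly6c2 barcodes among the Csf1r sets, and from 292 to 349 in the Flt3, Xcr1/Clec9a and Ccr7 sets. The Siglech set was the lowest of the 10, at 223, while lymphocyte reference barcodes held 26.3.

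Irf8 ran from 416 in early monocyte to 478 in Ly6c2 barcodes, and stood at 905 in Ccr7, 1156 in Xcr1/Clec9a, 1330 in Flt3 and 1748 in Siglech barcodes. Irf4 was low throughout, at 2.82 to 7.34 in the Csf1r and S100a9-high sets, 5.85 in Xcr1/Clec9a, 19.0 in Flt3, 21.9 in Siglech and 30.7 in Ccr7 barcodes. Lymphocytes themselves can express Irf8 and Irf4, and the reference, at 1285 and 23.6, is no gauge of free RNA for this pair.

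The nuclear receptors were sparse. Nr1h3 stood at 32.9 in C1q-high, 29.3 in Ly6c2, 24.3 in early monocyte, 22.9 in Cd163 and 19.2 in Mmp12 barcodes. Pparg stood at 9.69, 7.23, 6.73, 2.70 and 5.94 in the same sets. Both had their highest pooled level in the Xcr1/Clec9a set (35.4 and 10.7), of which 75.4% carried Csf1r, but without Csf1r Nr1h3 was reduced there to 1 UMI and Pparg to 2.

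Over all 9 members the 10 sets gave 81 pairs of neighbours in the order of pooled levels. The library ranges of the pair overlapped in 80 of them, and the counting intervals in 58. The exception was Irf8, whose Ccr7 barcodes (653 to 1108) lay above the Ly6c2 barcodes next in order (417 to 645). Neighbouring sets share barcodes, and pooled levels include libraries that held fewer than 20 barcodes.

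Early monocyte and Ly6c2 barcodes were compared after the 1211 in both sets were left out. None of the 9 members was called, against 0.833% of genes called higher and 0.563% called lower in Ly6c2 barcodes. Irf8 stood at 546 against 383, 1.42-fold higher (95% interval 1.37 to 1.48) and higher in 6 of 6 libraries. Nr1h3 was 1.55-fold higher (1.33 to 1.81) in 5 of 6 libraries. The other 7 members differed by at most 1.21-fold between the sets, although without library 5 the log2 ratio of Irf4 was 0.82 in place of 0.16. The median log2 ratio of the members was 0.11, beside 0.01 over all genes tested.

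C1q-high barcodes were then set against each monocyte set. Against early monocyte barcodes (1657 against 1598), Cebpb alone was called, at 907 against 2210, 2.44-fold lower (2.40 to 2.48) and lower in 6 of 6 libraries. Among all genes 5.45% were called higher and 4.5% lower in this comparison. Klf4 was lower in all 6 libraries without reaching 2-fold, at 166 against 313 (1.88-fold, 1.81 to 1.96). Irf4 stood at 3.42 against 6.66, lower in 5 of 6 libraries, and Maf at 390 against 551, also lower in 5 of 6. Klf4 was called lower with barcodes in exactly 1 set (2.48-fold), and Irf4 without the lymphocyte filter (2.01-fold) or without library 6 (2.52-fold).

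Nr1h3 and Pparg pointed the other way. Nr1h3 was 1.62-fold higher in C1q-high barcodes (1.44 to 1.83) and Pparg 1.62-fold higher (1.31 to 2.01), each in 6 of 6 libraries and below the 2-fold limit. After thinning to 2000 UMIs Nr1h3 was 3.13-fold higher and called. Irf8 differed by 1.09-fold, and Spi1 had a ratio of 0.973 (0.944 to 1.002 by counting error), with library ratios from 0.832 to 1.095. The median log2 ratio of the members was -0.04, beside 0.10 over all genes tested.

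Against Ly6c2 barcodes, which gave 5.64% of genes called higher and 4.59% lower, Cebpb was again the only member called (938 against 2088, 2.23-fold lower, 2.19 to 2.26, in 6 of 6 libraries). Klf4 was 1.72-fold lower and Irf4 1.99-fold lower, each in all 6 libraries. Maf stood at 399.8 against 519.9 and was lower in only 3 of 6. Cebpa, Spi1, Irf8, Pparg and Nr1h3 differed by at most 1.43-fold. The C1q-high barcodes here (1765) are largely those of the first comparison, and this is no second measurement. Without the lymphocyte filter Cebpb was 1.72-fold lower here and was not called, while Irf4 was 2.21-fold lower and called. Irf4 was also called where Csf1r was asked of only 3 sets (2.15-fold), in barcodes of at least 4000 UMIs (2.12-fold) and without library 6 (2.56-fold).

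The fall of Cebpb was read without thresholds by sorting the barcodes with a Csf1r UMI into 7 bins of C1q. From the lowest bin (under 5 UMIs of C1q per 10000) to the highest (120 and over), the pooled level of Cebpb was 2206, 1759, 1521, 1384, 1189, 967 and 860. The libraries spanned 2005 to 2367 in the lowest bin and 637 to 1013 in the highest. Median depth differed along the same bins, at 8810, 10205, 11795, 11811, 14936, 17936 and 17193 UMIs, and its part in these levels was not tested. Klf4 did not follow the same course, with 321, 374, 356, 308, 225, 178 and 126, so that its level dropped from the middle bins on. Maf stayed between 483 and 575 in the first 5 bins and was 388 and 352 in the highest 2. The libraries differed in this course. From the lowest to the highest bin Maf went from 861 to 381 in library 6, but from 204.5 to 280.0 in library 4 and from 485 to 654.5 in library 5, and in library 3 it was 444 and 415.

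In the pooled counts Nr1h3 and Pparg differed between the lowest bin and the rest more than among the rest. Nr1h3 was 19.5 in the lowest bin and 30.8 to 35.7 in the other 6, and Pparg 5.32 and then 8.97 to 12.0. Within libraries this was not seen throughout. Pparg in library 5 was 3.23 in the lowest bin and 0.875 to 6.39 in the others, and in library 4 it was 4.76 and then 1.65 to 15.8. Spi1 was lowest in the middle bins (325 at 20 to 40) and close at both ends (382 and 387), and Irf8 was highest there (504). At the threshold itself, barcodes with 50 to 60 and with 60 to 70 UMIs of C1q per 10000 held 1368 and 1250 of Cebpb and 267 and 229 of Klf4.

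**Figure D2:**
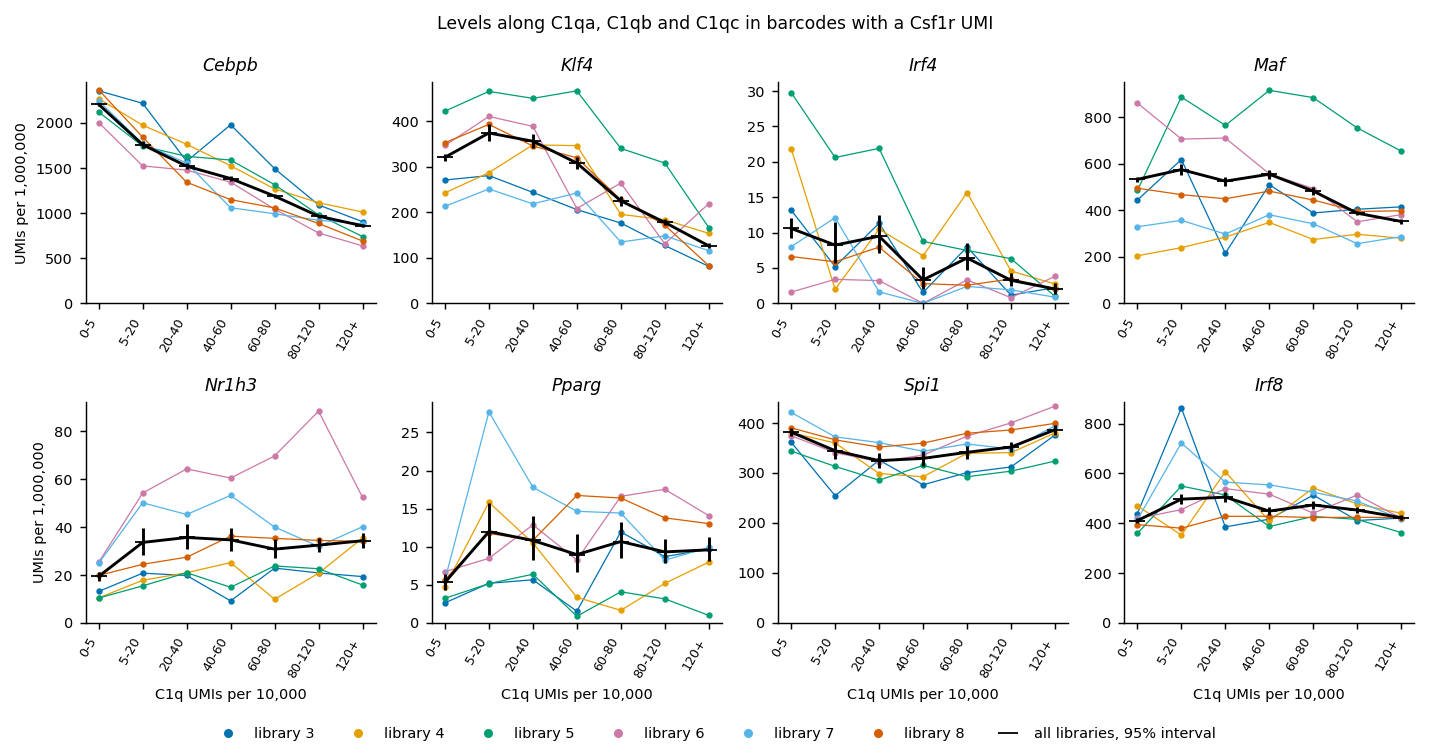
Level of 8 factors (y axis, UMIs per 1000000) in 7 bins of the summed C1qa, C1qb and C1qc UMIs per 10000 UMIs (x axis) in barcodes with a Csf1r UMI. Thin lines are libraries and the black line the pooled level with its 95% counting interval. Cebpb is lower in the highest bin (637 to 1013) than in the lowest (2005 to 2367) in every library. The pooled level of Spi1 lies between 325 and 387, and its libraries between 254.5 and 433.8.

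Mmp12 encodes a macrophage elastase. Mmp12 barcodes (790) were compared with C1q-high barcodes (1539), with 3.76% of genes called higher and 3.59% lower. Klf4 was called higher, at 340 against 166 (2.05-fold, 1.96 to 2.14), and Irf4 was called higher on 89 against 103 UMIs (8.51 against 3.82, 2.22-fold, 1.66 to 2.98). Nr1h3 was called lower, at 18.7 against 38.2 (2.04-fold, 1.75 to 2.39). Each held in 6 of 6 libraries, and each stood close to the 2-fold limit.

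Cebpb lay just below that limit (1792 against 915, 1.96-fold higher, 6 of 6 libraries), and Pparg was 1.995-fold lower in 5 of 6. The calls moved with single libraries. Without library 5 Irf4 was 1.84-fold and Nr1h3 1.92-fold apart and neither was called. Nr1h3 was also under 2-fold without library 3 or 4, and Klf4 without library 6 (1.99-fold) or 8 (1.94-fold). Thinning each barcode to 2000 UMIs before the sets were drawn left Irf4 at 1.12-fold, below the limit, and Klf4 at 1.58-fold. Both calls were also lost without the lymphocyte filter (1.985-fold and 1.77-fold) and with the mean over barcodes (1.72-fold and 1.73-fold). A denominator without mitochondrial and ribosomal genes lost the Klf4 call as well, at a ratio that rounds to 2. With barcodes in exactly 1 set or stricter thresholds, Irf4 was not higher in every library and Pparg was called lower (3.71-fold and 2.04-fold). Pparg was called lower with the mean over barcodes too (2.18-fold), and without library 4 both Pparg (2.34-fold lower) and Cebpb (2.02-fold higher) were called.

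Cd163 encodes the haemoglobin scavenger receptor of tissue-type macrophages. Cd163 barcodes (275) and C1q-high barcodes (1886) could be compared within libraries 5, 6 and 8, which held at least 20 of each, and 5.51% of genes were called higher and 4.29% lower. Maf was called higher at 1297 against 357, 3.63-fold (3.51 to 3.76), with library ratios of 1.94 to 3.70. Klf4 was called higher at 499 against 158, 3.16-fold (2.99 to 3.34), with library ratios of 2.04 to 3.93.

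Irf4 was called higher in Cd163 barcodes on 30 UMIs (9.13 against 3.19, 2.86-fold, 1.84 to 4.32). Its ratio was 3.33-fold with the mean over barcodes, where the call was lost. Pparg was called lower on 10 UMIs (3.04 against 10.4, 3.42-fold, 1.84 to 7.20), with library ratios of 0.205 to 0.982, so that 1 library showed almost no difference. The Pparg call was lost without the lymphocyte filter (1.71-fold) and, with ratios of 3.104 to 3.29, where Csf1r was asked of only 3 sets, with stricter thresholds and in barcodes of at least 4000 UMIs. Cebpb was 1.89-fold higher and Spi1 1.19-fold lower, each in all 3 libraries. Library 5 held 200 of the 456 Cd163 barcodes, more than any other library. Without it 145 of the 275 compared barcodes remained, and the log2 ratio was 1.57 for Klf4 and 2.0 for Maf, against 1.66 and 1.86 with all libraries. The median log2 ratio of the members was 0.41, beside 0.07 over all genes tested, and in the Mmp12 comparison it was -0.11, beside -0.14.

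Along the number of Cd163 UMIs in a Csf1r barcode (0, 1, 2 to 3, 4 and over), the pooled level of Maf was 410, 739, 1018 and 1297. Libraries spanned 248 to 613 at 0 Cd163 UMIs, and the 4 libraries with enough barcodes spanned 1130 to 1417 at 4 and over, without overlap. Klf4 was 234, 269, 455 and 441, and Cebpb 1439, 1358, 1400 and 1408. Pparg was 9.20 in barcodes without Cd163 and 2.05 to 3.42 in those with it, on 18 UMIs. Within libraries the difference was small in 5 (3.69 at 0 Cd163 UMIs, 3.51 at 4 and over) and in 3 (7.19 and 6.61). In the bin of 2 to 3 Cd163 UMIs library 5 alone held at least 20 barcodes, with 561 UMIs of Klf4 per 1000000. Median depths in these 4 bins were 11760, 13797, 9341 and 13100 UMIs.

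**Figure D3:**
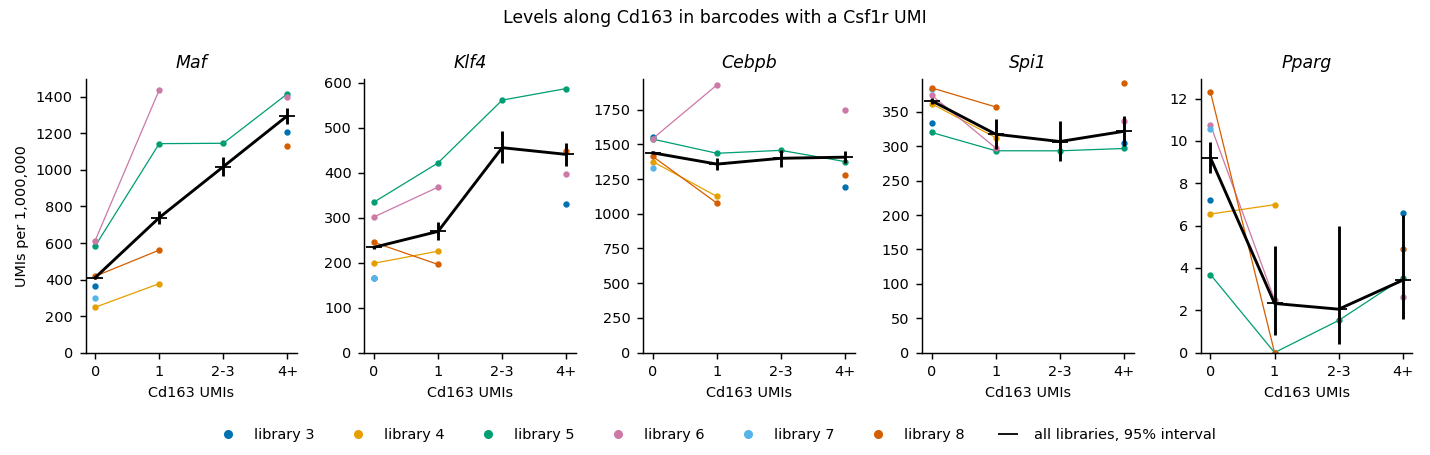
Level of Maf, Klf4, Cebpb, Spi1 and Pparg (y axis, UMIs per 1000000) by the number of Cd163 UMIs of a barcode (x axis) among barcodes with a Csf1r UMI. Thin lines and points are libraries with at least 20 barcodes and the black line the pooled level with its 95% counting interval. The pooled level of Maf goes from 410 to 1297 while that of Cebpb stays between 1358 and 1439, with libraries of Cebpb from 1077 to 1928.

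The S100a9-high, dendritic and plasmacytoid barcodes were compared with all 4712 barcodes of the 5 Csf1r sets. To limit transcripts of macrophages, only barcodes without a Csf1r UMI entered on the lineage side, which also selects shallower barcodes within each set. Whether the Csf1r UMIs of the barcodes left out came from macrophages or from the lineage cells themselves was not tested. Median depths, first in barcodes without Csf1r and then in the whole set, were 8069 and 15000 UMIs (S100a9-high), 9032 and 13840 (Flt3), 14000 and 22857 (Xcr1/Clec9a), 8296 and 12615 (Ccr7) and 6956 and 12564 (Siglech). The monocyte/macrophage barcodes had 12340, less than the Xcr1/Clec9a barcodes and more than the other 4 sets without Csf1r. All 5 comparisons share the monocyte/macrophage side, and libraries with at least 5 lineage barcodes counted. That side kept barcodes of the lineage sets that had a Csf1r UMI and met a rule of the 5 Csf1r sets. Without the S100a9-high barcodes it would have held 4166. Library ratios were formed after adding 0.5 UMI, so that a shallow library with 0 UMIs of a rare gene can be counted as higher.

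In the 70 S100a9-high barcodes without Csf1r, compared within 3 libraries, none of the members was called, against 4.11% of genes called higher and 6.33% lower. Cebpb stood at 2274, 1767 and 2406 in libraries 6, 7 and 8, above the monocyte/macrophage level of the same library (1595, 1346 and 1399) in each (pooled 2260 against 1436, 1.57-fold, 1.49 to 1.66). Maf was 1.37-fold higher (1.24 to 1.52), with library ratios of 1.06 to 1.38. Without library 6, which held 29 of the 70 barcodes, its log2 ratio was 0.01 in place of 0.46. Irf4 had 0 UMIs, where 3 counts would already stand only 1.03-fold below the monocyte/macrophage level, and a difference was not detectable at this depth. Cebpa, at 38.6 against 48.0, had a ratio within counting error of 1 (0.509 to 1.21), but its library ratios ran from 0.189 to 1.41, and without library 6 its log2 ratio was -1.59 in place of -0.29. Spi1 (292 against 363), Irf8 (518 against 443), Klf4 (249.8 against 239) and Nr1h3 (43.6 against 28.9) each went both ways among the 3 libraries. These barcodes still held 1103 UMIs of C1qa per 1000000.

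In the 118 Flt3 barcodes Irf8 was called higher and Maf, Cebpa, Cebpb and Nr1h3 lower, that is 1 member higher and 4 lower where 7.78% of all genes were called higher and 10.4% lower. Irf8 stood at 2016, 1952, 1897, 2244, 1523 and 1602 UMIs per 1000000 in libraries 3 to 8. In the monocyte/macrophage barcodes the same libraries held 444, 466, 414, 453, 466 and 418, far below every Flt3 value. The pooled ratio was 4.27-fold (4.09 to 4.45).

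Maf was 6.83-fold lower in Flt3 barcodes (67.6 against 462, 5.52 to 8.57), Cebpb 5.25-fold lower (4.72 to 5.86) and Cebpa 3.51-fold lower (2.19 to 6.03), each in 6 of 6 libraries. Nr1h3 was lower on 4 UMIs (8.99-fold, 3.51 to 33.0). Without library 5 the log2 ratio of Maf was -3.55 in place of -2.76. Spi1 was lower in 6 of 6 libraries but by only 1.503-fold (1.34 to 1.69). Irf4 was 5.92-fold higher (4.12 to 8.28) in 5 of 6 libraries and was not called. Its level ran from 0 in library 3 to 66.3 in library 8, without which the log2 ratio was 1.92 in place of 2.58. After thinning to 2000 UMIs the count of called members was the same but its members were not: Cebpa (4.54-fold, not in every library) and Nr1h3 (1.54-fold) were lost, and Spi1 (2.35-fold lower) and Irf4 (6.69-fold higher) were called. Stricter thresholds added Irf4 (3.24-fold higher) and Pparg (4.57-fold lower), which made 7 called members. Irf4 was called without library 3 (6.67-fold), and Klf4 (2.19-fold lower) and Pparg (6.14-fold lower) without library 7.

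The 31 Xcr1/Clec9a barcodes, compared within libraries 5, 6 and 8, gave Irf8 at 2540, 1960 and 1591 UMIs per 1000000, pooled 4.47-fold higher (4.19 to 4.77). Here 1 member was called higher and 4 lower, and of all genes 7.91% higher and 14.2% lower. Cebpb was 11.4-fold lower (8.88 to 14.9) and Maf 6.99-fold lower (4.95 to 10.2). Cebpa had 0 UMIs, at least 7.75-fold lower when 3 counts over the set are taken as the floor. Without library 8, which held most Maf here (213, against 7.28 and 12.2), the log2 ratio of Maf was -4.21 in place of -2.78. Klf4 was not called, except as lower with the mean over barcodes (2.75-fold) and without library 7 (2.46-fold). Nr1h3 had 1 UMI, in library 6 (14.0-fold lower, 2.51 to 554) and Irf4 had 2 (4.13 against 5.17, 0.0963 to 2.91 for the ratio), both in library 8, without which its log2 ratio was -2.12.

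The 77 Ccr7 barcodes, which held 1400 UMIs per 1000000 of Fscn1, the bundling protein of mature dendritic cells, gave 2 members called higher and 4 lower, with 7.46% and 10.2% of all genes. Irf4 was called higher at 39.5 against 5.17 (7.64-fold, 4.92 to 11.4). Over libraries 3 to 8 its level was 0, 9.93, 24.0, 8.86, 17.4 and 108. Library 8 thus stood far above the rest, and without it the log2 ratio was 1.43 in place of 2.96, while library 3 held none and was counted as higher only through the added 0.5 UMI. With the mean over barcodes in place of summed UMIs, Irf4 was 8.48-fold higher but not in every library, and the call was also lost without the lymphocyte filter (5.41-fold), with stricter thresholds (7.26-fold) and in barcodes of at least 4000 UMIs (7.21-fold). Irf8 was called higher by 2.69-fold (2.502 to 2.89), less than in the Flt3 set.

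Cebpb was 8.37-fold lower in Ccr7 barcodes (6.96 to 10.2), Maf 6.20-fold (4.69 to 8.39), Klf4 2.82-fold (2.17 to 3.73) and Nr1h3 6.35-fold on 3 UMIs (2.17 to 30.8). Cebpa was 3.51-fold lower (1.85 to 7.69) but higher in 1 of 6 libraries and not called. It was called lower without the lymphocyte filter (5.36-fold), where Csf1r was asked of only 3 sets (4.37-fold), with barcodes in exactly 1 set (4.36-fold), with the mean over barcodes (5.55-fold) and without library 7 (4.49-fold). Spi1, at 272 against 363, was 1.33-fold lower (1.15 to 1.55). Without the lymphocyte filter the Irf8 ratio in the Ccr7 set was 1.65-fold and the call was lost. It was also lost with barcodes in exactly 1 set (1.76-fold) and after thinning to 2000 UMIs (2.87-fold, not in every library). Under the same pair of settings Maf (2.42-fold and 2.27-fold) and Klf4 (1.95-fold and 1.71-fold) lost their calls too. Nr1h3 lost its call under both (14.57-fold with barcodes in exactly 1 set, 1.699-fold after thinning) and with stricter thresholds (4.48-fold). Pparg, lower by a log2 ratio of -1.12 without a call, turned after thinning to 2.28-fold higher and was called. Its log2 ratio at full depth was -3.25 without library 7 and -0.48 without library 8.

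The 54 Siglech barcodes differed from monocyte/macrophage barcodes in the most members, with 2 called higher and 5 lower, where 13.9% of all genes were called higher and 9.39% lower. Irf8 stood at 3075, 3216, 3109, 4017, 3376 and 2599 in libraries 3 to 8, pooled 3202 and 7.23-fold higher (6.83 to 7.65). All 53 barcodes deep enough to be thinned to 2000 UMIs had a UMI of Irf8 (exact binomial 95% interval from 93.3%). Irf4 was called higher at 47.7 against 5.17 (9.22-fold, 5.49 to 14.6), with values from 0 in library 7 to 82.5 in library 4, and the library at 0 was again counted as higher through the added 0.5 UMI. With the mean over barcodes the ratio was 11.2-fold and the call was lost.

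Of the 5 lineage sets, compared as above, Spi1 was called in the Siglech set alone. That call was lost with Csf1r barcodes kept (1.64-fold), and under other settings Spi1 was called lower in Flt3 barcodes (2.35-fold, thinned to 2000 UMIs) and in Ccr7 barcodes (2.61-fold, no lymphocyte filter) as well. Libraries 3 to 8 held 167, 99.0, 95.2, 91.9, 116 and 55.1 UMIs of Spi1 per 1000000. Their monocyte/macrophage barcodes held 334, 359, 314, 371, 384 and 380, and the ranges did not overlap. The pooled ratio was 3.80-fold lower (2.77 to 5.38). Cebpb was 3.56-fold lower (3.05 to 4.18), Maf 5.26-fold (3.78 to 7.55), Cebpa 6.38-fold on 3 UMIs (2.18 to 30.9) and Nr1h3 11.5-fold on 1 UMI, in library 6 (2.07 to 456). After thinning to 2000 UMIs the calls of Cebpa (3.39-fold, not in every library) and Nr1h3 (1.91-fold) were lost.

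Maf and Klf4 in Siglech barcodes were highest in library 5. Maf stood at 349 there, 29.1 in library 7, 13.1 in library 6 and 0 in the other 3. Klf4 stood at 465 in library 5 and at 0 to 58.2 elsewhere, and was 1.95-fold lower over all libraries without a call. Klf4 was called lower in barcodes with C1q under 5 per 10000 (3.26-fold) and with the mean over barcodes (2.26-fold). Without library 5 Klf4 was 12.1-fold lower and called, and the log2 ratio was -5.68 in place of -2.37 for Maf and, with all 3 UMIs of Cebpa in that library, -4.81 in place of -2.45 for Cebpa. The 12 monocyte/macrophage markers ran from 893 to 3912 over the libraries of this set, and the part of free RNA or of a second cell in these values was not tested.

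The S100a9-high, Flt3, Xcr1/Clec9a, Ccr7 and Siglech comparisons gave median log2 ratios over the members of 0.07, -1.55, -0.82, -1.48 and -1.91. Over all genes tested these were -0.09, -0.01, -0.04, -0.17 and 0.15. These medians include the added 0.5 UMI. Without it, and with a member at 0 UMIs (1 each in the S100a9-high, Xcr1/Clec9a and Siglech comparisons) at the bound of 3 counts, they were 0.06, -1.77, -0.99, -1.49 and -1.83 in the same order. Pparg was called in none of the 5 as compared here, with 0 to 3 UMIs on the lineage side. In Siglech barcodes, where it had 0 UMIs, Pparg was called lower with the mean over barcodes (15.8-fold), a size set by the added 0.5. In summed UMIs 3 counts would stand only 1.09-fold below the monocyte/macrophage level, and a difference was not detectable.

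**Figure D4:**
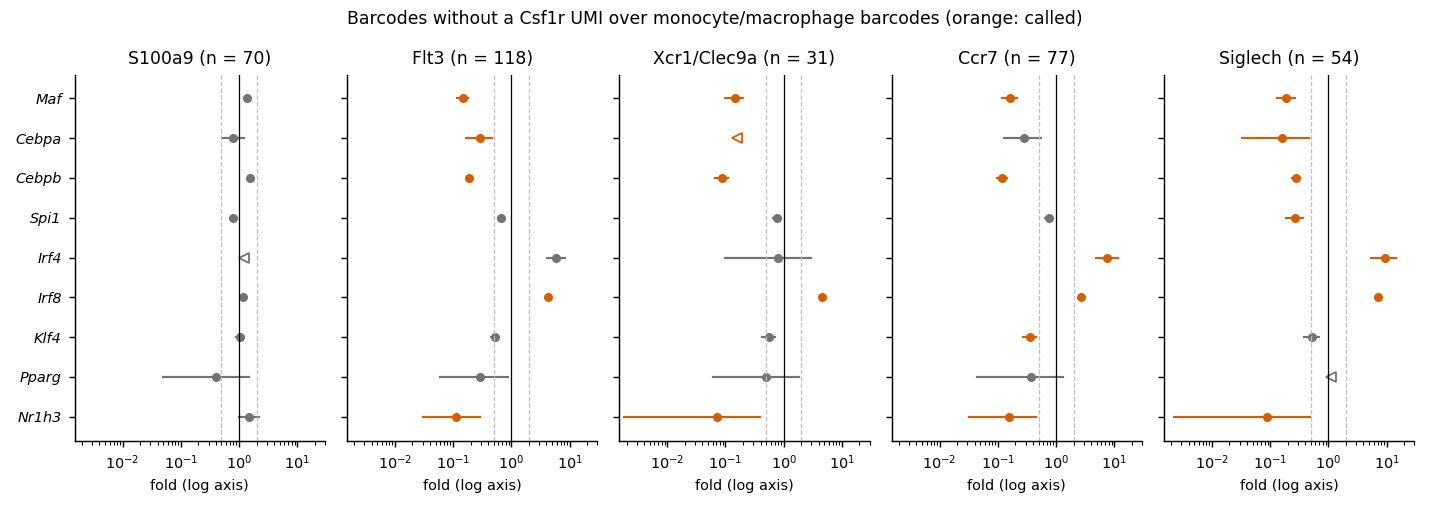
Ratio of each factor (x axis, fold on a log axis) in barcodes of 5 lineage sets without a Csf1r UMI to the 4712 monocyte/macrophage barcodes, with 95% counting intervals. Orange marks called members, dashed lines the 2-fold limits and open triangles the upper end of the 95% counting interval where a member had 0 UMIs. Irf8 lies to the right in the 4 dendritic and plasmacytoid sets, from 2.69-fold to 7.23-fold, and Maf and Cebpb lie to the left in each.

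The Csf1r rule mattered for these sets. Siglech barcodes with a Csf1r UMI held 1388 UMIs of Irf8 per 1000000 and those without 3202, while Maf was 399 and 87.8. In Flt3 barcodes Irf8 was 1114 with and 1888 without Csf1r, and Maf 370 and 67.6. Nr1h3 in Xcr1/Clec9a barcodes was 42.1 with and 2.06 without. The same direction was seen for Spi1, at 254 and 95.4 in Siglech barcodes. With Csf1r barcodes kept in the lineage sets, 2 members were called in each of the 4 dendritic and plasmacytoid comparisons, in place of 5 to 7. The share of all genes called is not given for this setting, so the smaller counts cannot be read as particular to the members.

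Flt3 barcodes without Csf1r were split by their further markers into 32 with Siglech, 20 with Xcr1/Clec9a, 40 with Ccr7 and 26 with none of these. The libraries were pooled and no call was made, since the subsets are small. Irf8 stood at 3316 (3095 to 3548), 2107 (1963 to 2259), 1354 (1244 to 1470) and 793 (675 to 926), and no interval reached that of another subset. The last subset had the most Cd209a (396, against 2.67 to 114), a lectin of type 2 dendritic cells, and also the most Cebpb (674), Maf (218) and Spi1 (342).

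Irf4 ran differently from Irf8 in these subsets. It stood at 51.5 (27.4 to 88.1) in the Siglech subset, 41.1 (23.9 to 65.8) in the Ccr7 subset and 39.6 (17.1 to 78.1) in the subset with none. In the Xcr1/Clec9a subset it had 0 UMIs, with an upper limit of 9.84 from the counting interval. Spi1 was lowest in the Siglech subset (87.2, 54.6 to 132), and Cebpb was lowest in the Ccr7 subset (58.0, 37.2 to 86.3). Batf3, a partner of Irf8 in Xcr1-positive dendritic cells, stood at 181 in the Ccr7 subset and 90.7 in the Xcr1/Clec9a subset. It was 119 in the subset with none of these markers and 11.9 in the Siglech subset.

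**Figure D5:**
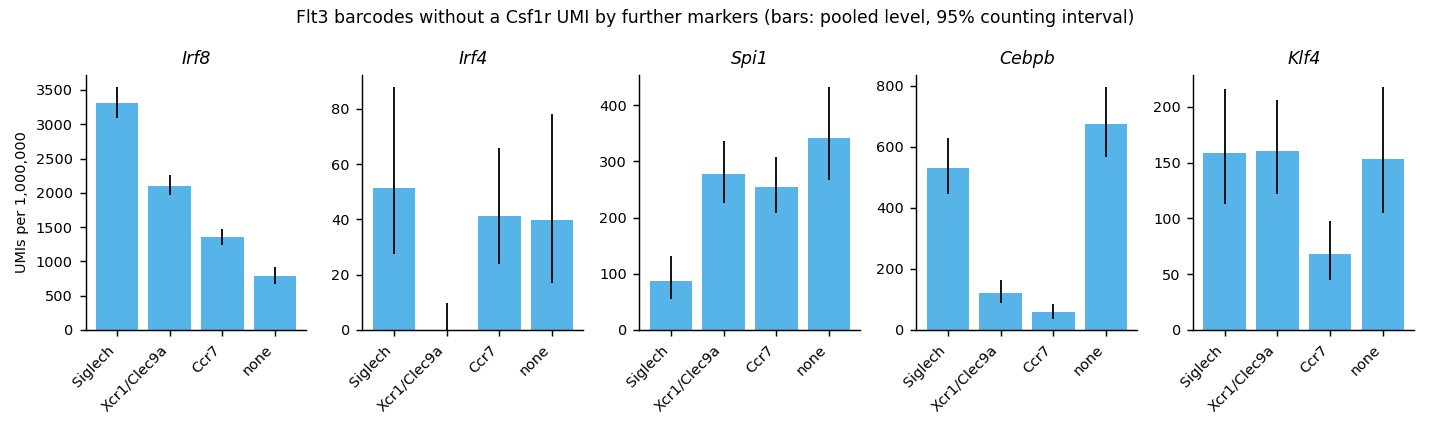
Pooled level (y axis, UMIs per 1000000) of Irf8, Irf4, Spi1, Cebpb and Klf4 in 4 subsets of the Flt3 barcodes without a Csf1r UMI (x axis), with 95% counting intervals. Irf8 steps down from 3316 in the Siglech subset to 793 in the subset with no further marker, and Irf4 has no UMI in the Xcr1/Clec9a subset.

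Shares of barcodes were compared at a fixed depth, after thinning each to 2000 UMIs, which left out 359 shallower barcodes. Among monocyte/macrophage barcodes a UMI was found for Cebpb in 82.9%, Spi1 in 50.6%, Maf in 49.3%, Irf8 in 49.0%, Klf4 in 32.4%, Cebpa in 9.37%, Nr1h3 in 4.95%, Pparg in 1.37% and Irf4 in 1.22%. At full depth these shares were 97.1%, 92.7%, 83.8%, 88.8%, 70.3%, 39.9%, 23.1%, 8.595% and 4.90%. In lymphocyte reference barcodes, which should lack most of these genes and had a median depth of 7234 UMIs against 12340, the shares at 2000 UMIs were 34.6% for Cebpb, 5.57% for Klf4, 5.08% for Spi1, 0.984% for Cebpa and 0.492% for Nr1h3. Pparg had none, which allows a share of up to 0.492% by 3 counts and 0.603% by the exact binomial interval. All of these lay below the monocyte/macrophage shares. For Maf, which T cells can express, the share was 20.2%.

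The same gauge limits the low values in the lineage sets. Cebpb was found in 15.7% of Ccr7, 23.3% of Xcr1/Clec9a, 25.0% of Flt3 and 30.2% of Siglech barcodes without Csf1r at 2000 UMIs, each below the 34.6% of the lymphocyte reference. Its pooled level was also below the reference level of 309 in the first 3 and above it in Siglech barcodes (404). Single libraries went the other way, with 557 in Flt3 barcodes of library 8 (292 in its reference) and 427 in Ccr7 barcodes of library 4 (234 in its reference). Klf4, at 12.9% to 20%, and Spi1, at 17.0% in Siglech and 28.4% to 46.7% in the other 3, were above it. In Siglech barcodes Klf4 exceeded the reference of the same library clearly only in library 5 (465 against 122), and libraries 3, 4, 6 and 8 held 0, 0, 13.1 and 22.0 against 17.0, 14.4, 58.6 and 36.6.

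Relatives of the members in the same families were listed with them, and 39 of these genes were tested. In C1q-high against early monocyte barcodes 0 were called higher and 1 lower (Nfil3), where 5.45% and 4.5% of all genes were, and in Ly6c2 against early monocyte barcodes none was called either way. Bach1, a repressor of haem genes, was called higher in Cd163 than in C1q-high barcodes, as were 5.51% of all genes. In Mmp12 barcodes 3 relatives, Id2, Nfil3 and Spic, were called higher than in C1q-high barcodes, and 3.76% of all genes. Irf7, a mediator of type I interferon responses, was called lower in C1q-high (240) than in Ly6c2 barcodes (463), where 4.59% of all genes were.

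In the dendritic and plasmacytoid sets 2 to 4 of the 39 relatives were called higher and 5 to 12 lower, where 7.46% to 13.9% of all genes were called higher and 9.39% to 14.2% lower. Tcf4, which directs plasmacytoid development, stood at 2364 in Siglech barcodes against 148, and Id2, which opposes it, at 108 against 732. Relb and Batf3 were called higher in Ccr7 barcodes, at 322 and 144. Spib, an ETS relative of Spi1, stood at 349 in Siglech barcodes against 2.39 in monocyte/macrophage barcodes, the opposite order to Spi1, but its level over all barcodes left it out of the calls.

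Genes known to be regulated by the members were listed too, and 32 were tested beside those that served as markers. Of these, 2 were called higher and 8 lower in C1q-high than in early monocyte barcodes (5.45% and 4.5% of all genes), and 1 higher and 8 lower than in Ly6c2 barcodes (5.64% and 4.59%). Against C1q-high barcodes, 8 were called higher and 1 lower in Mmp12 barcodes (3.76% and 3.59%), and 9 higher and 3 lower in Cd163 barcodes (5.51% and 4.29%). In the dendritic and plasmacytoid sets 3 to 5 were called higher and 14 to 19 lower (7.46% to 13.9% and 9.39% to 14.2% of all genes). Of the genes linked to the C/EBP factors, Csf3r, Lcn2, Il1b, Il6 and Clec4e were called lower in C1q-high than in early monocyte barcodes, and also lower than in Ly6c2 barcodes. Il1b, for example, stood at 4267 in early monocyte and 1790 in C1q-high barcodes. In Mmp12 barcodes Il1b, Il6 and Clec4e were called higher than in C1q-high barcodes. The list describes genes that C/EBP proteins can drive, and other factors drive them as well.

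Of 3 tested genes linked to Maf, Mrc1 and F13a1 were called higher in Cd163 than in C1q-high barcodes, where 5.51% of all genes were, and Il10 (33.4 and 23.2) was not. The Irf4-linked chemokines Ccl22 and Ccl17 were called higher in Ccr7 barcodes, at 776 and 200 against 4.70 and 3.41, together with Cd209a. In Siglech barcodes, where Irf4 stood at 47.7, Ccl22 and Ccl17 had 0 UMIs and Cd209a alone of the 4 listed genes was called higher. The Irf8-linked genes Cd24a, Naaa and Cst3 were called higher in Flt3 and in Xcr1/Clec9a barcodes, and Cxcl9 was called lower in both. Cst3 was called higher and Cxcl9 lower in Ccr7 barcodes. In Siglech barcodes none of the 4 was called higher, and Naaa and Cxcl9 were called lower. Apoe, a target of Nr1h3, was the only 1 of its 6 listed genes called higher in C1q-high than in early monocyte barcodes, against 5.45% of all genes. Lpl and the Pparg-linked Cd36 were called lower in Cd163 than in C1q-high barcodes.

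The libraries differed in the level of some members within monocyte/macrophage barcodes. Maf stood at 411, 279, 723, 691, 303 and 446 in libraries 3 to 8, and Klf4 at 167, 199, 372, 305, 160 and 242. Both were highest in libraries 5 and 6. Nr1h3 was highest in library 6 (45.8) and lowest in library 5 (16.3), and Pparg was lowest in library 5 (2.83, against 5.99 to 11.04 elsewhere). Irf8 (414 to 466), Spi1 (314 to 384) and Cebpb (1338 to 1595) varied least. The share of C1q-high barcodes ran from 18.5% in library 6 to 64.0% in library 4 and the share of Ly6c2 barcodes from 26.7% to 68.5%, and whether these differences follow the injected ASO cannot be told from the labels.

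The genes whose levels followed each member most closely over 52 points (sets in single libraries) were found among 5731 genes. For Maf these were Cltc, Wdfy2 and Ap2m1 (Pearson r 0.951, 0.914 and 0.910), and for Cebpb Ccr1, Ets2 and Mcl1 (0.924, 0.922 and 0.889). Irf8 was followed most closely by Arpc5l (0.939), Spi1 by Gk (0.844), Klf4 by Reep3 (0.805), Cebpa by Rnf130 (0.803) and Irf4 by Rftn1 (0.794). The sparse Nr1h3 and Pparg had the weakest, Rasa4 (0.758) and Tcf7l2 (0.696). Klf4 had Maf among its 3 closest genes (0.799). The points share libraries, depth and barcodes and are not independent, and these values are descriptions.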

How the data were processed

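Single cells from 6 tumors, 3 per group, were profiled by droplet sequencing of 3′ transcript ends. The deposited values are raw UMI counts of 20649 genes in 9235 barcodes, which the authors made with Cell Ranger 1.2 against mm10. The submitters' processing notes also name R 4.0.1 and Seurat 3.1.5. None of the 9235 barcode columns could be matched to a tumor or treatment, so the matrix was handled as 1 pooled sample, and the barcode endings as 6 libraries.

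UMIs were summed over each barcode set and divided by the total of the set (Python 3.11.15, numpy 2.4.6, scipy 1.17.1, matplotlib 3.10.9). Exact Poisson, binomial and conditional binomial intervals at 95% cover counting error only. Calls, library ratios and values under alternatives, with those they are set against, were taken after adding 0.5 to each sum (or mean), while the folds of pooled sums with intervals were not. Total UMIs per library ran from 11492757 to 33902084, which makes the counting error small for Cebpb, Irf8 or Maf and large for Irf4 and Pparg. Barcodes that met both rules of a comparison were left out of it. The lymphocyte genes that excluded a barcode at 2 UMIs included Cd3d, Cd3e, Cd3g, Ncr1, Klrb1c, Gzma, Cd79a and Ms4a1. Some genes of the lists are not reported here. No doublet caller was run, and this filter removes only doublets that include a lymphocyte. A self-test on simulated counts preceded the calls. The comparisons of the S100a9-high, dendritic and Siglech sets were first written with at least 20 barcodes per library and no rule on Csf1r, which left fewer than 3 libraries. They were replaced, after the data were seen, by barcodes without Csf1r and at least 5 per library. The bins of C1q and Cd163 and the Flt3 subsets were also added then.

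All 9 members were tested in every comparison, those not named in one were not called there, and other genes are named from the lists of relatives, targets and markers or as the 3 genes most like a member. The members and lists were chosen with earlier results of these data known. Likeness is Pearson's r of log2 levels over sets with enough barcodes in single libraries, among genes with at least 20 UMIs per 1000000. Promoter sequences are from RefSeq (GRCm38.p6), and gene positions from the GENCODE annotation of GRCm38. For the ratios, 11 alternatives were tried besides leaving out each library.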

Additional observations from a re-analysis of the deposited data

How the results depend on the processing

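No paired analysis was possible because no label ties a barcode ending to a tumor, a replicate number or a group, so that treated and control tumors could not be paired. Barcode sets were compared within libraries, by the direction in each. The counts of called members were 1 (C1q-high against early monocyte), 1 (C1q-high against Ly6c2), 3 (Mmp12), 4 (Cd163), 0 (S100a9-high), 5 (Flt3), 5 (Xcr1/Clec9a), 6 (Ccr7) and 7 (Siglech). Without the lymphocyte filter C1q-high against early monocyte gave 2 and Mmp12 gave 1, and Pparg was lost from the Cd163 comparison. With barcodes in exactly 1 set the early monocyte comparison gave 2 (Klf4 added), S100a9-high 2 and Ccr7 3. Thinning to 2000 UMIs gave 2 in the early monocyte comparison (Nr1h3 added), 1 in Mmp12, 3 in Ccr7 (Maf, Irf8, Klf4 and Nr1h3 lost and Pparg added, as higher at a log2 ratio of 1.19 against -1.12) and 5 in Siglech (Cebpa and Nr1h3 lost). The Flt3 count stayed at 5 there, with Cebpa and Nr1h3 lost and Spi1 and Irf4 added, and was 7 with stricter thresholds (Irf4 and Pparg added). Thinning preceded the marker rules, so that barcodes with a Csf1r UMI at full depth could enter the sets without Csf1r. C1q-high against Ly6c2 gave 2, with Irf4 added, where Csf1r was asked of only 3 sets and where barcodes needed 4000 UMIs. The S100a9-high count was 1 with stricter thresholds, with C1q under 5 per 10000 and with a denominator without mitochondrial and ribosomal genes, and 2 with the mean over barcodes, through Pparg and Irf4 at 2 and 0 UMIs. With Csf1r barcodes kept in the lineage sets, the Flt3, Xcr1/Clec9a, Ccr7 and Siglech comparisons gave 2 each, and Nr1h3 in Xcr1/Clec9a barcodes turned to a log2 ratio of 0.33. Leaving out 1 library at a time gave 1 to 2 called members in both monocyte comparisons of C1q-high barcodes (2 without library 6), 1 to 4 in Mmp12, 0 to 1 in S100a9-high, 5 to 7 in Flt3, 5 to 6 in Xcr1/Clec9a, 6 to 7 in Ccr7 and 7 to 8 in Siglech. Shares of all genes called are given above for the main comparisons only. Counts under the alternatives therefore have no background beside them and cannot be read as particular to the members. Where a value moved, the cause was not tested.

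The direction of the member ratios held in 524 of 540 with 1 library left out, 89 of 90 in barcodes with at least 4000 UMIs, 81 of 90 without the lymphocyte filter 80 of 90 after thinning to 2000 UMIs and 39 of 45 with Csf1r barcodes kept, and in 85 to 88 of 90 or 43 to 44 of 45 under the other 7. Counts of called members could not be given where fewer than 3 libraries remained. This held for the Cd163 comparison without library 5, 6 or 8, with barcodes in exactly 1 set and after thinning. It also held for the S100a9-high comparison without library 6, 7 or 8, for Xcr1/Clec9a under most alternatives, for Flt3 and Siglech with barcodes in exactly 1 set, for S100a9-high and Siglech where Csf1r was asked of only 3 sets, and for all lineage comparisons as first written. Irf4, Pparg and Nr1h3 rest on few UMIs in the lineage sets, where depth limits what can be seen. Nothing here separates the injected ASOs, and a library may differ from another by tumor, handling or treatment, which cannot be told apart.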
